A study of Mus musculus with 17 samples.

Results

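Of 17 libraries in the series, 5 MNase libraries are compared here, 1 of mouse embryonic stem (ES) cells and 4 of mature mouse sperm. The 4 were digested with 0.5, 2, 10 and 50 units of enzyme and kept whole. All 5 were chosen by preparation and by table layout, and no measured value entered the choice. They hold the same nucleosome-sized class of fragments, bounded below and, at 165 bp, above, at the same start sites. The sperm came from 10-week-old mice of strain C57/B6J, from the caudal epididymis and vas deferens by swim-up. They were crosslinked with 1% formaldehyde for 15 min and their digest was not separated by spinning. The labels do not state how many sperm each of these digests held. The ES cells were E14, a male line of background 129 X Ola, grown without feeder cells in serum and LIF. Their nuclei received 10 units per 1000000 cells and were rotated for 4 h, and the fraction sequenced was the supernatant of a spin at 5000 g. No crosslinking is stated for them. Both were digested for 5 min at 37 °C. Cell type, strain, crosslinking, enzyme dose and spinning therefore change together between sperm and ES cells and cannot be told apart in any value given here. Each group was 1 library, so no value has a replicate and no test was possible. Intervals in brackets are 95% intervals that cover counting error only. They are exact, except that log2 ratios of flank-relative signal between sperm and ES cells have log-normal intervals.

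MNase digests DNA that no protein holds, and a nucleosome protects a stretch close to the size class of these tables. In most cells the start sites of active, CpG-rich promoters are kept open by transcription factors and the transcription machinery, and nucleosomes stand to either side. Mature sperm do not transcribe, and protamines have taken the place of most histones, so the retained nucleosomes and where they lie have been studied closely. Whole chromatin from sperm and soluble chromatin from ES cells were set side by side here at every annotated start site.

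Promoters from the ends of the comparison of single genes are shown as examples of the CpG classes. The first pair below had the higher shares in sperm and is classed as high-CpG in the deposited tables; the second pair had none of the sperm fragments within 1000 bp and is classed as low-CpG. They are RefSeq promoter windows of 300 bases in GRCm38.p6, 5′ to 3′ on the gene's strand, with every CG dinucleotide in capitals. RefSeq's start and the mm9 start of the deposited tables could not be compared because the builds differ.
Cebpb: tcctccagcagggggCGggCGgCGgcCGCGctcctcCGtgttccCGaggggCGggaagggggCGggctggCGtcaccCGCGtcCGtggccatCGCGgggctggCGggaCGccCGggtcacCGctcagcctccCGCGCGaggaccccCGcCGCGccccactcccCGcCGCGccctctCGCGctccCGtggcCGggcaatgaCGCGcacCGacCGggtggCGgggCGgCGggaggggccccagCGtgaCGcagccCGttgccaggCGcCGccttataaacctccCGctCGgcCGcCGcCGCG
Pou3f2: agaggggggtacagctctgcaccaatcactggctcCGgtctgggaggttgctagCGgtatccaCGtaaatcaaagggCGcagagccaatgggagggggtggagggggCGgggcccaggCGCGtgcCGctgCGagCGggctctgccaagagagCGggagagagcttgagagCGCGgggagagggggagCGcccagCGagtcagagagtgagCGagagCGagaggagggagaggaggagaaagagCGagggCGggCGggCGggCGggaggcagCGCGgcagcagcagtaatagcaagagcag
Olfr722: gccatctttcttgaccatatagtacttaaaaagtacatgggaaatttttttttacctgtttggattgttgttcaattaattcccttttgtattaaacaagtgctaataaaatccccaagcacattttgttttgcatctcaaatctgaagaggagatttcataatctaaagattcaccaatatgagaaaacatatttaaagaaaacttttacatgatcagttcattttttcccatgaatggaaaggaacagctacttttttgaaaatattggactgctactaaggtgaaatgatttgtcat
Aadacl2fm1: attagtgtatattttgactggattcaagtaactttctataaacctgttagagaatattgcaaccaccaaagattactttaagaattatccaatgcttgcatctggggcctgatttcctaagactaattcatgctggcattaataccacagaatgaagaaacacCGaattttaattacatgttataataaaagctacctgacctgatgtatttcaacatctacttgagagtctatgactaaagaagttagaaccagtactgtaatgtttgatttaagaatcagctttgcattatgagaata
The window of Cebpb, which encodes a transcription factor of fat, liver and myeloid cells, lies at chr2:167688665-167688964 on the + strand and holds 50 CG dinucleotides. That of Pou3f2, a POU-domain factor of neural development, lies at chr4:22488317-22488616 on the - strand and holds 24. That of the odour receptor gene Olfr722 lies at chr14:49901892-49902191 on the - strand and holds 0. That of Aadacl2fm1 lies at chr3:59924964-59925263 on the + strand and holds 1. CG has the same letters on both strands and cannot overlap itself. The median number of CG per window was 22 for genes of high-CpG promoters, 6 for intermediate-CpG and 2 for low-CpG promoters, and 95.4% of all 16031 windows matched to a start site held at least 1. Other promoters at these ends do not follow the examples: at the upper end the windows of Hsd3b7, Smok2b and 4931408C20Rik held 3, 2 and 0 CG, and at the lower end Pcdhb20 is classed as high-CpG. These counts describe the classes and the examples only, because windows were matched for 75.5% of start sites.

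The tables give a signal, a pileup of fragments in 20 bp bins, and a lone fragment adds 22 to it, so sums were divided by 22 and are given as fragments. Within 1000 bp of the 23320 start sites the sperm libraries held 19557, 19577, 15883 and 16321 fragments at 0.5, 2, 10 and 50 units, together 71337, and the ES cell library held 774480. That is 3.06 fragments per start site in the summed sperm libraries and 33.2 in ES cells. Between 41.5% and 49.5% of start sites had no signal in a given sperm library and 7.50% had none in the sum, against 0.656% in ES cells. Shares of a library's fragments were compared for this reason, with the 4 sperm libraries singly for pooled promoters and summed for single genes. Stacks of fragments at 1 position were more frequent in ES cells. Of isolated signals, 1.41% to 3.28% held more than 1 fragment in the sperm libraries, against 34.4% in the ES cell library. That library was also 39.6 to 48.8 times as deep as a single sperm library. What part of its stacking goes with depth was not tested. If stacks are copies of 1 fragment, its counting intervals are too narrow.

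The clearest contrast was at the start sites of the 10569 high-CpG promoters, which serve most housekeeping and developmental genes. In the first 300 bp downstream, sperm signal relative to the flanks 1000 to 2000 bp away was 0.559 [0.521 to 0.599] at 0.5 units, 0.986 [0.931 to 1.04] at 2 units, 1.11 [1.05 to 1.18] at 10 units and 1.88 [1.78 to 1.98] at 50 units, against 0.316 [0.312 to 0.320] in ES cells. Every sperm library was above the ES cell library, by 1.77-, 3.12-, 3.52- and 5.96-fold in order of dose. Thus the lowest sperm dose, like ES cells, had less signal after the start site than in the flanks, and the highest dose had more.

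Over the 200 bp upstream of high-CpG start sites the corresponding values were 0.726, 0.909, 0.979 and 1.36 in sperm at the 4 rising doses, against 0.346 in ES cells. The sperm libraries were 2.10-, 2.63-, 2.83- and 3.92-fold higher there. At 2, 10 and 50 units the excess over ES cells was larger downstream than upstream, and at 0.5 units it was smaller downstream.

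**Figure D1:**
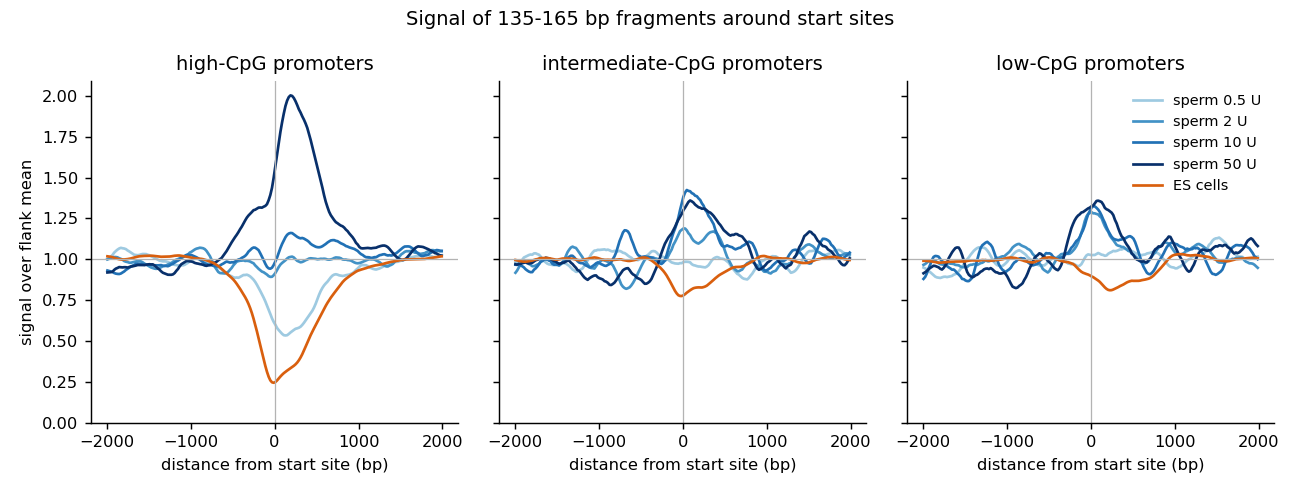
Smoothed mean signal divided by the mean of the flanks (vertical axis) against distance from the start site in bp (horizontal axis), for high-, intermediate- and low-CpG promoters, with 1 line for each of the 4 sperm libraries and 1 for ES cells. At high-CpG promoters the 50-unit sperm line peaks at 2.00 while the ES cell line falls to 0.245.

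The position of the extremes also differed, as the plot of signal by distance shows. In high-CpG promoters the 50-unit sperm library peaked at 2.00 times its flanks 190 bp after the start site, in the region where the first downstream nucleosome usually lies. The 10-unit library had its highest value, 1.16, at the same position. The 2-unit library was nearly flat, between 0.893 and 1.07, and the 0.5-unit library was lowest, 0.534, at 130 bp after the start site. The ES cell library was lowest 10 bp before the start site, at 0.245. Across the 100 bins within 1000 bp, Pearson's r of the high-CpG sperm profile with the ES cell profile was 0.94, 0.37, -0.38 and -0.86 at 0.5, 2, 10 and 50 units. Neighbouring bins share fragments, so these coefficients only describe how alike the shapes were.

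Intermediate- and low-CpG promoters, which are more often tissue-restricted, differed less. Downstream of intermediate-CpG start sites sperm had 0.966, 1.13, 1.38 and 1.33 times the flank signal at the 4 rising doses, against 0.817 in ES cells. Downstream of low-CpG start sites the values were 1.03, 1.21, 1.24 and 1.32 in sperm and 0.845 in ES cells. All 8 of these sperm values were above the ES cell value beyond counting error. Upstream of low-CpG start sites at 0.5 units the difference was within counting error, with a log2 ratio of 0.10 [-0.09 to 0.28]. For the summed sperm libraries the downstream excess over ES cells was 3.32-fold in high-CpG, 1.43-fold in intermediate-CpG and 1.39-fold in low-CpG promoters.

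High-CpG promoters also held a larger share of the sperm fragments within 1000 bp. Of fragments at classed promoters they took 59.6% [58.8 to 60.4] at 0.5 units, 64.5% [63.7 to 65.3] at 2 units, 65.4% [64.5 to 66.2] at 10 units and 69.6% [68.7 to 70.4] at 50 units, against 56.9% [56.8 to 57.1] in ES cells. All 4 sperm libraries were above the ES cell share and their order followed the dose. Low-CpG promoters took 19.4%, 16.5%, 15.6% and 13.9% in sperm at the same doses and 21.0% in ES cells. Intermediate-CpG promoters took 21.0%, 18.96%, 19.1% and 16.5% in sperm and 22.1% in ES cells. The log2 ratio of the summed sperm libraries over ES cells was 0.18 [0.16 to 0.20] for high-CpG, -0.22 [-0.25 to -0.19] for intermediate-CpG and -0.35 [-0.38 to -0.32] for low-CpG promoters.

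**Figure D2:**
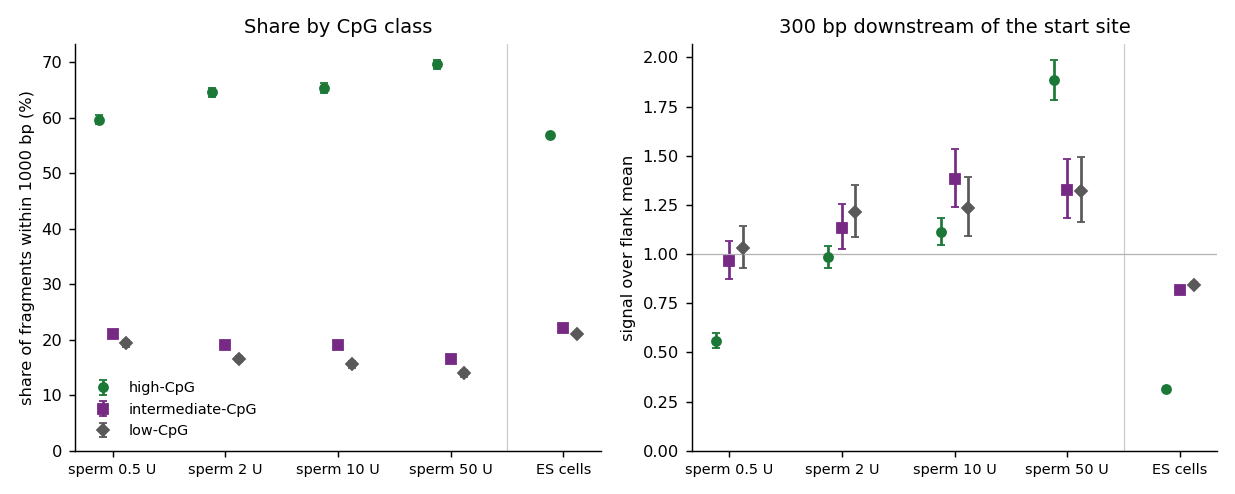
Left, the share of fragments within 1000 bp (percent) held by high-, intermediate- and low-CpG promoters in the 4 sperm libraries and in ES cells; right, signal in the first 300 bp downstream divided by the flank mean. Bars are exact 95% counting intervals, and the high-CpG values of sperm lie above those of ES cells at each dose in both panels.

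Start sites were ordered by their ES cell signal, so ES cells must show the steepest order, and the sperm values are a description with no comparison of evenness. The 2332 start sites with the least ES cell signal held 4.94%, 6.05%, 6.52% and 7.54% of sperm fragments at the 4 rising doses, against 2.57% in ES cells. The 2332 start sites with the most ES cell signal held 13.0%, 11.0%, 10.4% and 9.64% of sperm fragments, against 19.02% in ES cells. An even spread would give each such group 10%. High-CpG promoters made up 41.6% of the lowest group, 59.7% of the second lowest and 20.3% of the highest. This order is therefore not separate from the class shares given above. Among the sperm libraries the 0.5-unit library was the closest to the ES cell order, and the 50-unit library had no more signal at the promoters highest in ES cells than an even spread would give.

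The same comparison was made within high-CpG promoters, ordered by ES cell signal at the start site. Whether low signal there means open DNA was not tested. Between 200 bp upstream and 300 bp downstream, the 1057 promoters lowest in ES cells had 0.317, 0.632, 0.711 and 1.70 times their flank signal in sperm at the 4 rising doses, where ES cells held 11 fragments in all, a ratio of 0.000964. The 1057 highest in ES cells had 0.888, 1.15, 1.36 and 1.46 times the flank signal in sperm, against 0.997 in ES cells. At 0.5, 2 and 10 units sperm signal was lower at the promoters lowest in ES cells than at those highest. At 50 units sperm signal was above the flanks in both groups. The interval at the promoters lowest in ES cells, 1.46 to 1.98, overlapped that at the highest, 1.26 to 1.70.

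**Figure D3:**
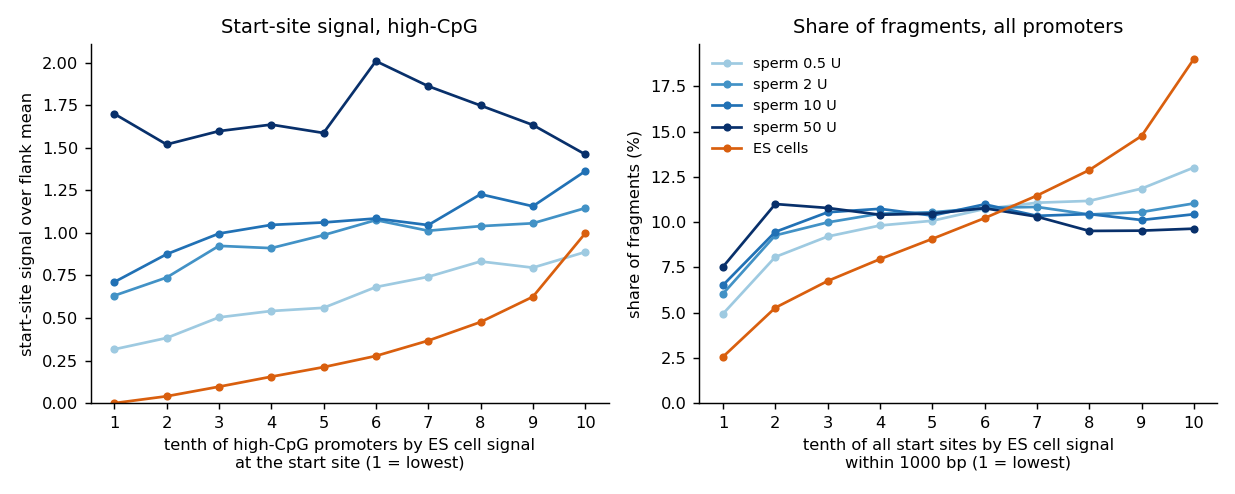
Left, signal at the start site divided by the flank mean for 10 equal groups of high-CpG promoters ordered by ES cell start-site signal; right, the share of fragments within 1000 bp (percent) for 10 equal groups of all start sites ordered by ES cell signal. Lines are the 4 sperm libraries and ES cells; the groups were made from the ES cell values, and the 50-unit sperm line stays between 1.46 and 2.01 at the left while the ES cell line runs between 0.000964 and 0.997.

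Single genes could be read at few promoters. At a mean level worth 10 sperm fragments only 5 of 20925 genes could be compared. A gene was called where the log2 ratio of the summed sperm libraries over ES cells passed 1 in size, a 2-fold difference, and its interval left out 0. By this rule 2 of the 5 were called higher (40.0%) and 1 lower (20.0%). These counts support nothing, since a gene can pass the minimum through the group where it is high: at equal shares the ES cell level of Hsd3b7 was worth 2.57 sperm fragments, and that of BC018473 17.3. Hsd3b7, which encodes an enzyme of bile acid synthesis, has its start at chr7:134944122 in mm9. It had 4.0, 8.6, 5.0 and 2.0 fragments in sperm at the 4 rising doses, together 19.5, against 27.9 in the far deeper ES cell library. Its share was higher in sperm at each dose, with a log2 ratio of 2.52 [2.05 to 3.83]. The uncharacterised gene 4931408C20Rik had 12.6, 9.2, 8.9 and 2.0 fragments in sperm, against 159.5 in ES cells. Its share was higher at 0.5, 2 and 10 units and lower at 50 units, and the log2 ratio of the sum was 1.11 [0.58 to 1.71]. BC018473 had 1.0, 2.6, 0.0 and 0.0 fragments in sperm, while the ES cell library had 188.0, and was lower at each dose, with a log2 ratio of -1.98 [-4.0 to -0.73]. Sfi1, a centrosomal protein gene, had by far the most fragments, 23.8, 31.6, 27.8 and 22.2 in sperm with 1341.2 in ES cells, and its log2 ratio of -0.23 had an interval of -0.53 to 0.05.

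With no minimum level, 1060 of 20925 genes were called higher in sperm, 5.07%, and 458 lower, 2.19%. Depth set what could be called: a lower call needed at least 41.5 ES cell fragments, and a higher call could rest on 2.0 sperm fragments. Of high-CpG genes 6.41% were called higher and 0.970% lower, whereas of low-CpG genes 2.69% were called higher and 5.22% lower. ES cells had 30.4 fragments per high-CpG start site and 41.9 per low-CpG one. The limit on lower calls thus fell unequally on the classes. Without any call, 55.5% of 10004 high-CpG, 39.2% of 2840 intermediate-CpG and 33.2% of 2680 low-CpG genes had a larger share in sperm, against 47.6% of all genes, of which 52.4% had a smaller one.

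The genes at the upper end of this wider list were named after their values were seen. Ranking by this ratio with no minimum favours genes with little ES cell signal, so that trait comes from the ranking. Cebpb, with its start at chr2:167514414 in mm9, had 2.0, 1.6, 1.5 and 2.0 fragments in sperm at the 4 rising doses, together 7.2, against 4.1 in ES cells. All 4 doses were higher than ES cells by share, and the log2 ratio was 2.58 [2.27 to 6.47]. Pou3f2 had 3.0, 0.0, 3.0 and 2.0 fragments in sperm and 7.1 in ES cells, a log2 ratio of 2.44 [1.98 to 5.33]. Adrb1, the beta-1 adrenergic receptor gene, had 3.3, 0.0, 2.0 and 2.0 in sperm and 5.9 in ES cells, a log2 ratio of 2.42 [1.87 to 5.51]. For Pou3f2 and Adrb1 the 2-unit library was empty and the other 3 were above ES cells by share, all on single-digit counts. Tmem267 led the list with 1.0, 4.0, 6.0 and 1.9 fragments in sperm, where ES cells had 1.5, a log2 ratio of 3.61 [4.41 to 12.55]. That ratio includes a pseudocount of 1 sperm fragment, which pulls low genes towards 0 and here below the interval, made without it. The other genes of the upper 10 were Mirlet7c-2, a let-7 microRNA gene, Mfng, a glycosyltransferase that modifies Notch, Emx2os, Rapgef3, Smok2b and Hsd3b7.

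At the lower end stood Gm9733, Mir1898, Olfr791, Cyp7a1, Olfr722, Pcdhb20, Aadacl2fm1, Tas2r105, D6Ertd474e and Bex6. None of the 10 had a whole sperm fragment within 1000 bp in any library, and they had between 79.9 and 110.4 fragments in ES cells. They too were named after their values were seen. At this end the ranking favours genes without sperm signal and with much ES cell signal, so both traits come from the ranking. Against a floor of 3 fragments over the summed sperm libraries, Gm9733 was 3.39-fold lower and Bex6 2.45-fold lower in sperm. Folds against this floor are not lower limits. The intervals of the log2 ratio allowed smaller differences, with upper ends of -1.43 for Gm9733 and -0.96 for Bex6. Cyp7a1, the rate-limiting enzyme of bile acid synthesis in liver, had 0.0 fragments at each sperm dose and 90.2 in ES cells. Against the floor Cyp7a1 was 2.77-fold lower, and the upper end of its log2 interval was -1.14. Tas2r105, a bitter taste receptor gene, had 0.0 at each sperm dose and 84.5 in ES cells. It was 2.59-fold lower against the floor, with an upper end of -1.04. Olfr722 had 0.0 at each sperm dose and 87.0 in ES cells, 2.67-fold lower against the floor, with an upper end of -1.09.

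Gene lists gave more fragments than single genes. Of 29 lists, 7 had a pooled sperm share above that of ES cells beyond counting error, 11 had one below it and 11 had an interval that held 0. Of the 7, 5 were higher at all 4 doses, and of the 11, 8 were lower at all 4. Genes of 1 list often neighbour each other, and close start sites share fragments, so the intervals are too narrow for clustered families. Because classes differ, each list was also set beside the log2 ratio its ES cell fragments would have at the class averages.

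Regulators of development were higher in sperm. Homeodomain and Pax genes, factors that pattern tissues, had 65, 66, 77 and 82 fragments in sperm at the 4 rising doses, against 1940 in ES cells. The log2 ratio was 0.40, 0.44, 0.95 and 1.00 by dose and 0.70 [0.52 to 0.88] for the sum, against 0.11 from the classes. Of its 82 members 56 had a larger share in sperm, and 17, 20.7%, were called higher with no minimum level, beside 5.07% of all genes and 6.41% of high-CpG genes. The members with the most signal went otherwise: Pou2f1, a widely expressed POU-domain factor, had 0.0, 1.0, 0.0 and 0.0 fragments in sperm and 100.0 in ES cells, a log2 ratio of -2.35 [-8.52 to -0.69], and Pou5f2 had -0.31 [-2.01 to 0.95]. Gata, Sox, Fox, T-box and bHLH genes, which specify cell lineages, had log2 ratios of 0.25, 0.63, 0.62 and 0.86 by dose and 0.59 [0.44 to 0.74] for the sum, against 0.08 from the classes, with 80 of 114 members higher. Wnt, Bmp, Fgf and hedgehog ligands, secreted patterning signals, had 0.49 [0.29 to 0.69] with 47 of 65 members higher. Foxb1, a forkhead factor, had 2.0, 2.0, 1.4 and 3.0 fragments in sperm and 23.8 in ES cells, a log2 ratio of 1.56 [0.49 to 3.06], while Tbx19, a T-box factor of the pituitary, had 0.67 [-0.52 to 1.85].

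The 39 Hox genes, which set position along the body axis, were less even. Their log2 ratio was 0.18, -0.10, 0.93 and 0.50 by dose and 0.40 [0.14 to 0.66] for the sum, with 22 members higher and 17 lower. Within 200 bp of the start site it was -0.17 [-0.82 to 0.44], of the opposite sign and with an interval that held 0. Hoxb13 had 3.0, 2.5, 2.0 and 1.0 fragments in sperm and 29.0 in ES cells, a log2 ratio of 1.36 [0.24 to 2.75], higher at all 4 doses. Hoxd13 had 5.6 in the summed sperm libraries and 23.0 in ES cells, with an interval of -0.08 to 2.84, and Hoxa9 had 2.0 in the summed sperm libraries and 28.7 in ES cells, with an interval of -3.53 to 1.57.

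Imprinted genes, expressed from 1 parental allele, also had a larger share in sperm. The 43 measured members had 44, 55, 45 and 41 fragments in sperm at the 4 rising doses, against 1224 in ES cells. The log2 ratio was 0.50, 0.83, 0.84 and 0.65 by dose, each interval above 0, and 0.71 [0.48 to 0.93] for the sum, against 0.06 from the classes. Of the 43, 36 had a larger share in sperm, beside 47.6% of all genes. Called higher were 4, 9.30%, beside 5.07% of all genes and 6.41% of high-CpG genes, a count too small to build on. Kcnq1, a potassium channel gene of an imprinted cluster, had 1.0, 3.6, 1.0 and 3.0 fragments in sperm and 44.7 in ES cells. Its interval of -0.10 to 2.17 held 0, as did that of Igf2, a fetal growth factor gene with 5.0 fragments in the summed sperm libraries and 33.0 in ES cells.

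**Figure D4:**
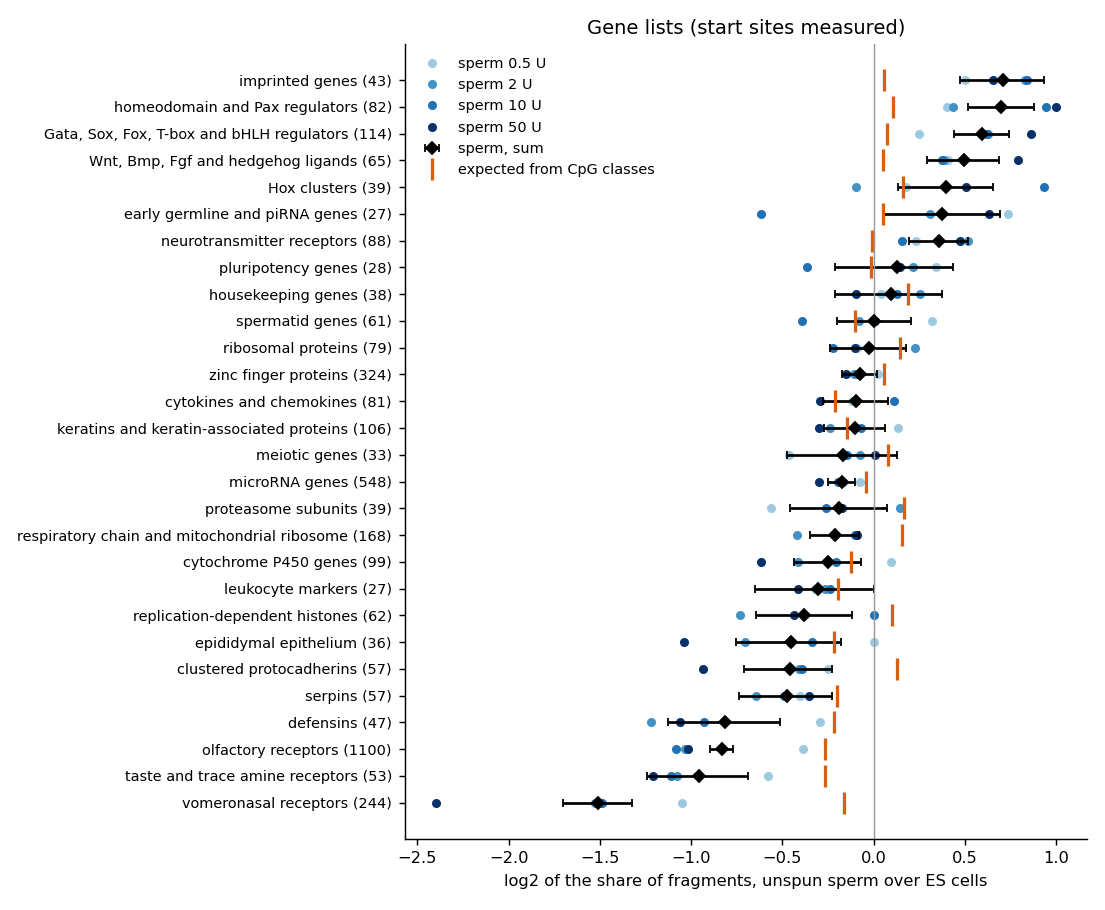
Log2 ratio of the share of fragments within 1000 bp, unspun sperm over ES cells (horizontal axis), for each gene list with its number of start sites measured (vertical axis; 9 globin genes are left out for low counts). Blue points are the 4 sperm libraries, diamonds with bars their sum and its exact 95% counting interval, and orange ticks the ratio that the CpG classes alone would give. Imprinted genes are at 0.71 and vomeronasal receptors at -1.51.

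Chemosensory receptor families were the lowest. Of 346 vomeronasal receptors, which detect pheromones, 244 were measured. Those measured had 90, 64, 54 and 29 fragments in sperm at the 4 rising doses and 7334 in ES cells. The log2 ratio was -1.05, -1.53, -1.49 and -2.40 by dose and -1.51 [-1.70 to -1.32] for the sum, against -0.16 from the classes. Of the 244, 6 are classed as intermediate-CpG and 59 as low-CpG, and the rest have no class. The value from the classes therefore draws largely on the average of start sites without a class, -0.04. Of the members 218 had a smaller share in sperm and 26 a larger one. Called lower were 23, 9.43%, beside 2.19% of all genes, 5.22% of low-CpG genes and 2.31% of genes without a class. The 1100 olfactory receptors had -0.39, -1.03, -1.08 and -1.01 by dose and -0.83 [-0.90 to -0.77] for the sum, against -0.27 from the classes. Among them 881 had a smaller share in sperm, and 67, 6.09%, were called lower, close to the 5.22% of low-CpG genes. Taste and trace amine receptors had -0.96 [-1.24 to -0.69] with 47 of 53 members lower, and defensins, a family of antimicrobial peptides, had -0.82 [-1.13 to -0.52] with 35 of 47 lower. In each of these 4 families the 0.5-unit library was the nearest to ES cells.

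Families with CpG-rich promoters were also among the lower lists. Clustered protocadherins, adhesion molecules of neurons, had -0.46 [-0.71 to -0.23], against 0.13 from the classes, with 37 of 57 members lower. Replication-dependent histone genes had -0.38 [-0.65 to -0.12], against 0.10 from the classes, with 40 of 62 lower, and at 10 units their ratio was 0.00. Respiratory chain and mitochondrial ribosome genes had -0.21 [-0.35 to -0.08] with 96 of 168 lower. Within 200 bp of the start site that last ratio was 0.16 [-0.17 to 0.47].

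Shares were also compared for genes of germ cells and of ES cells. Spermatid genes, active in the cells that become sperm, had a log2 ratio of 0.00 [-0.20 to 0.20] with 27 of 61 members higher. Pluripotency genes, which maintain the ES cell state, had 0.13 [-0.21 to 0.43] with 14 of 28 higher, and meiotic genes had -0.17 [-0.47 to 0.13], all 3 with intervals that held 0. Early germline and piRNA genes, which identify germ cells and silence transposons, had 0.73, 0.31, -0.62 and 0.63 by dose and 0.37 [0.06 to 0.69] for the sum, with 15 of 27 members higher. The protamine gene Prm1 had 2.0, 2.0, 2.0 and 1.0 fragments in sperm and 26.6 in ES cells, a log2 ratio of 1.21 [0.05 to 2.73], higher at all 4 doses. Its neighbour Prm2 had 1.5 in the summed sperm libraries and 42.5 in ES cells, with an interval of -4.08 to 0.95. The transition protein genes Tnp1 and Tnp2, with 2.8 and 2.0 sperm fragments, also had intervals that held 0. So did Pou5f1, Nanog and Sox2, core pluripotency factors with 3.0, 2.1 and 2.0 fragments in the summed sperm libraries and 33.4, 44.1 and 13.5 in ES cells. Dnmt3l, a cofactor of DNA methylation in the germline, had 1.3, 3.8, 1.0 and 4.0 in sperm and 39.9 in ES cells, a log2 ratio of 1.24 [0.28 to 2.47]. These fragments come from genomic DNA that both cell types carry, so markers cannot check the cell types here. Genes of the epididymal epithelium had -0.45 [-0.75 to -0.18] and leukocyte markers -0.31, with an interval of -0.65 to 0.00 that just held 0.

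Lists were also compared by their level right at the start site. Between 200 bp upstream and 300 bp downstream, 20 of 29 lists had a higher ratio to the flanks in the summed sperm libraries than in ES cells beyond counting error, and 0 had a lower one. The same comparison over all start sites gave a sum 1.81-fold above ES cells over the 200 bp upstream and 2.07-fold above over the 300 bp downstream, and over high-CpG sites 2.75- and 3.32-fold, so a higher ratio is not particular to these lists. Housekeeping genes had 1.12, 0.66, 0.99 and 2.87 in sperm at the 4 rising doses and 0.322 in ES cells. Early germline and piRNA genes had 1.74, 1.04, 1.65 and 4.67 in sperm and 0.379 in ES cells. Meiotic genes had 0.39, 1.51, 1.66 and 3.95 in sperm and 0.443 in ES cells. In these 3 lists the 50-unit library was the highest. The difference from ES cells was within counting error for meiotic genes at 0.5 units, which were below ES cells, and at 2 units for housekeeping genes, with 5 fragments and a log2 ratio of 1.03 [-0.30 to 2.36], and early germline genes, with 4 fragments and 1.45 [-0.09 to 3.0]. Vomeronasal receptors, in contrast, had 0.54, 0.43, 1.28 and 0.72 in sperm at the 4 rising doses and 0.884 in ES cells. At 0.5 and 2 units they were below ES cells, with log2 ratios of -0.72 [-1.42 to -0.02] and -1.05 [-2.01 to -0.09], on 19 and 10 fragments. At 10 and 50 units, and in the sum, at 0.67, the difference was within counting error.

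Promoters of the X chromosome held a smaller share in sperm than in ES cells, and the cause was not tested. The 952 X-linked start sites had 396, 401, 264 and 203 fragments in sperm at the 4 rising doses and 18577 in ES cells. Against autosomes their log2 ratio was -0.25, -0.23, -0.54 and -0.96 by dose, all 4 below 0 beyond counting error, and -0.45 [-0.53 to -0.36] for the sum. As a share of the library, single autosomes in the sum ranged between -0.16 for chromosome 13 and 0.20 for chromosome 15, with the X at -0.44. At 2 units chromosomes 3 and 13, at -0.24 and -0.22, were as low as the X, at -0.23, whereas at 0.5, 10 and 50 units the lowest autosome was at -0.09, -0.30 and -0.19 and the X at -0.24, -0.53 and -0.95. At 50 units X-linked promoters were below autosomal ones in each class, beyond the intervals in all but the low-CpG class. The high-CpG ratio was -0.51 [-0.85 to -0.18] on the X and 0.33 [0.29 to 0.36] on autosomes, and the intermediate-CpG ratio -1.20 [-1.69 to -0.72] and -0.37 [-0.44 to -0.31]. At 0.5, 2 and 10 units the high-CpG intervals of the X and of autosomes overlapped. The ratios were -0.08 [-0.34 to 0.18] on the X and 0.07 [0.04 to 0.10] on autosomes at 0.5 units. At 2 units they were 0.21 [-0.04 to 0.44] and 0.20 [0.16 to 0.23], and at 10 units 0.15 [-0.12 to 0.42] and 0.22 [0.19 to 0.26].

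**Figure D5:**
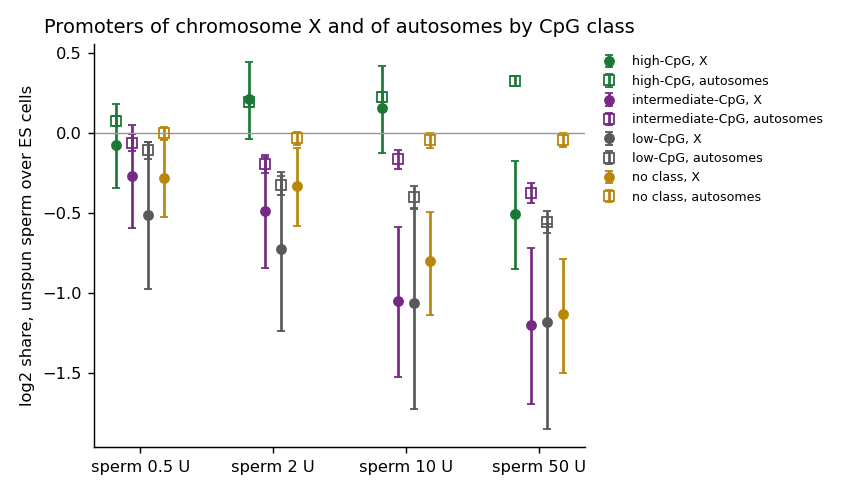
Log2 ratio of the share of fragments within 1000 bp, sperm over ES cells (vertical axis), at each sperm dose (horizontal axis) for promoters on the X chromosome (filled) and on autosomes (open) by CpG class, with exact 95% counting intervals. At 50 units X-linked high-CpG promoters are at -0.51 and autosomal ones at 0.33.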

How the data were processed

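Paired-end reads of MNase digests were aligned with Bowtie and handled with SAMtools 0.1.16 against mm9, per the submitters' processing notes; filters on reads and duplicates are not stated there. The authors deposited a signal, a whole-number pileup in 20 bp bins over 2000 bp to each side of 28015 start sites, not scaled to depth, from a fragment size class that its name bounds below and, at 165 bp, above. CpG classes (HCP, ICP, LCP, read as high-, intermediate- and low-CpG) were taken from another deposited table, which states no limits between them. Repeats were taken once and 764 of 24084 start sites at 0 in all 5 libraries were left out. Python 3.11.15, numpy 2.4.6, pandas 2.3.3, scipy 1.17.1 and matplotlib 3.10.9 were used.

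Fragments are sums divided by 22. Shares have exact binomial intervals and log2 ratios exact conditional binomial intervals, made without a pseudocount; ratios to the flanks were compared with log-normal counting intervals. Gene ratios add 1 fragment to the sperm side and the same share of depth to the ES cell side. Without molecular identifiers, these intervals reflect counting error alone. The calculation was tested on simulated data. Symbols came from a RefSeq table of GRCm38.p6, which named 27260 rows, and each gene is its start site with the highest mean share.

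Named genes were the 10 highest and 10 lowest ratios among genes with a mean of 10 fragments, an interval without 0 and the same sign in 3 of 4 doses, 2 members per list with the highest mean share, and a fixed set. As 5 genes passed the minimum, the rule was repeated without it after the values were seen. The members and lists were chosen with earlier results of these data known. A planned check of GC content is void, since fewer than 80% of start sites matched a promoter sequence (75.5%). Alternatives covered windows, flanks, filters, pseudocounts, left-out libraries and stacked fragments, the last as a mean stack of ES cells chosen after seeing the data. The sperm library of the standard digestion was not used here.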

Additional observations from a re-analysis of the deposited data

How the results depend on the processing

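The higher start-site signal and high-CpG share in sperm and the lower intermediate- and low-CpG shares kept their direction in every alternative run. In log2 ratios of sperm over ES cells, leaving out each sperm library gave 1.44 to 2.01 for the high-CpG downstream signal, 1.31 to 1.61 upstream, 0.45 to 0.63 and 0.44 to 0.57 for intermediate- and low-CpG downstream signal, and 0.15 to 0.22, -0.28 to -0.16 and -0.45 to -0.28 for the high-, intermediate- and low-CpG shares. Sums of the sperm libraries thus depend on dose, and the values at single doses are the firmer ones. Equal weights gave 1.81 downstream. Start sites with no other within 4000 bp gave 1.84 downstream and a high-CpG share ratio of 0.21. Within 200 bp the 3 share ratios were 0.62, -0.53 and -0.77, and within 2000 bp 0.089, -0.084 and -0.23. Windows of 100 bp upstream and 200 bp downstream gave 1.84 and 1.81 for high-CpG and 0.54 upstream for intermediate-CpG promoters. Dividing ES cell fragments by their mean stack, an alternative chosen after seeing the data, gave 2 and 1 called genes and by construction cannot change shares or ratios to the flanks. The numbers of genes called higher and lower, 2 and 1, were not stable: 0 to 1 and 0 to 1 with a library left out, 0 and 0 without the 1% of start sites with the highest mean share, 1 and 0 within 200 bp, 126 and 3 within 2000 bp, 1060 and 458 with no minimum, 309 and 16 at 5 fragments, 1 and 0 at 20 fragments, and 1580 and 647 with a fragment sized as 150 bp over 20 bp bins. A limit on the highest bins gave 0 lower calls and a pseudocount of 5 fragments 1 higher call. Sign changed for Tdrd1 (-0.63, start sites with no other within 4000 bp), and within 200 bp for Mir341 (-0.38), Hox genes (-0.17) and respiratory chain genes (0.16); the cause was not tested. No paired analysis was possible because each group is 1 library with no shared replicate number across groups.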

Other observations

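The ES cell library had no signal over the whole 2000 bp to each side at 18 start sites. Only Mrgpra3, a Mas-related receptor gene of sensory neurons with its start at chr7:54856742 in mm9, had more than 3 fragments there in the summed sperm libraries, 3.95, 2, 2.95 and 2 at the 4 rising doses. In the other direction, 633 start sites had no sperm signal over that reach, and 511 of these had at least 3 ES cell fragments, in libraries of unequal depth.

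Neurotransmitter receptor genes, receptors of neurons that neither cell type is known for, had a log2 ratio of 0.36 [0.19 to 0.52] for the summed sperm libraries over ES cells, against -0.01 from the CpG classes. It was positive at each dose, with intervals that held 0 at 0.5 and 10 units. Of 88 members 54, 61.4%, had a larger share in sperm, beside 47.6% of all genes and 55.5% of high-CpG genes. MicroRNA genes had -0.18 [-0.25 to -0.10] with 324 of 548 members lower.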
